A study of Mus musculus with 26 samples.

Results

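The 10 genes described here are Per1, Per2, Per3, Cry1, Cry2, Arntl, Clock, Nr1d1, Nr1d2 and Dbp, the core genes of the mammalian circadian clock with one of its best known outputs. They were taken by gene symbol, and all 10 were found among the 20430 symbols of the RNA tables and the 19941 symbols of the footprint tables. They were measured in the mouse embryonic fibroblast line NIH3T3 by polyA RNA sequencing and by ribosome profiling, which sequences the mRNA fragments that ribosomes protect (footprints). In the heat experiment, an unstressed control was set against short heat (44 °C, 2 h) and longer heat (42 °C, 8 h). In the second experiment, 1 unstressed control was shared by oxidative stress with H2O2 for 2 h or 7 h and by osmotic stress with KCl for 2 h or 7 h. RNA was measured in all 8 groups and footprints in the 5 groups of the H2O2 and KCl experiment, with 2 libraries in each group. The doses of H2O2 and KCl, the time at which the controls were taken and any step that sets the phase of the clock are not stated in the labels, so a stress and the hours that passed with it cannot be told apart. The labels do not say that replicates came from separate cultures, and the p-values measure only the spread between these libraries, which may be technical.

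RNA libraries held 24441877 to 45244430 expected counts. Footprint libraries held 1460751 to 5168537, and both ends of that range were the 2 libraries of H2O2 at 2 h. All 8 fibroblast markers examined reached 1 TPM in RNA and in footprints, and their summed level ranged from 4147 to 11280 TPM. Some markers of other cell types also reached 1 TPM, among them all 4 epithelial ones in footprints. The summed level of each of 5 marker lists of other cell types stayed at or under 54.9 TPM in every library. In bulk RNA, fewer cells that express a gene and less RNA per cell cannot be told apart.

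In the clock, the CLOCK and ARNTL (BMAL1) proteins pair and bind E-box sequences, through which they activate the Per, Cry, Nr1d1, Nr1d2 and Dbp genes. The PER and CRY proteins inhibit that pair, which closes the main feedback loop. NR1D1 and NR1D2 (the REV-ERB receptors) repress Arntl through ROR elements, which the ROR receptors bind as activators. DBP activates genes that carry D-boxes, and cultured fibroblasts are a classic system for this clock because each cell runs one.

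The promoter sequences show which of these elements lie near the start of each gene. RefSeq promoter windows (GRCm38.p6) ran from 250 bases before to 50 bases after a gene's start, and 9 of the 10 genes matched, all but Per2, with 13 windows in all. The strings searched, on both strands, were the E-box CACGTG, its variant CACGTT, the D-boxes TTATGTAA and TTACGTAA, the ROR element core TAGGTCA with the shorter receptor site AGGTCA inside it, the cyclic AMP response element TGACGTCA and the heat shock pair GAANNTTC. The 3 windows below are shown because they hold the element of a partner described here: the first is chr7:113207261-113207560 (Arntl, plus strand), the second is chr4:151044616-151044915 (Per3, minus strand) and the third chr10:85185005-85185304 (Cry1, minus strand). Capitals mark the ROR element core in Arntl, the D-boxes in Per3, and the E-box with its variant, read on the opposite strand, in Cry1.
Arntl: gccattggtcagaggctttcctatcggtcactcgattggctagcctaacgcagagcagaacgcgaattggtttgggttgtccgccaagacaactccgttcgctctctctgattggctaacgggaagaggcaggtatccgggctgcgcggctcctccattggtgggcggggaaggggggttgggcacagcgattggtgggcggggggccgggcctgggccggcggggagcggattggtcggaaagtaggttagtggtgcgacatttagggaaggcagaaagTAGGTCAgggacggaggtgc
Per3: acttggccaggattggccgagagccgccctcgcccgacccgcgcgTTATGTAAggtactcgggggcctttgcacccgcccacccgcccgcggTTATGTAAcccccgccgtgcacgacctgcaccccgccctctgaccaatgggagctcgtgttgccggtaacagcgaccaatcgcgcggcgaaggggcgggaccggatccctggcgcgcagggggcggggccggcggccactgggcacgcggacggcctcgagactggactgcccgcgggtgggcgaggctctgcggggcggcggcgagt
Cry1: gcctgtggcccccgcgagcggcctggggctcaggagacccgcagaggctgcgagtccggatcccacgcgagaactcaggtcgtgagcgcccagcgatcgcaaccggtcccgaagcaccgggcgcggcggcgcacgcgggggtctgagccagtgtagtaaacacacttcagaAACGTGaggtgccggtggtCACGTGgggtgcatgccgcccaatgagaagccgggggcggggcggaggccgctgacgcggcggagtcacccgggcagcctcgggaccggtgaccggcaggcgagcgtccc
Arntl held the ROR element core 30 bases after the start in 1 of its 2 windows, the one printed, a string found in 2.61% of 32851 windows. Per3 held TTATGTAA at 205 and at 158 bases before its start, and 0.938% of windows held that string at least once. Cry1 held the E-box 60 bases before its start and the variant at 79, and Per1 held an E-box at 166 in 1 of its 2 windows. An E-box was found in 7.15% of windows and its variant in 4.68%, the latter also in Cry2 and Nr1d1. The shorter site AGGTCA, in 16.3% of windows, was also in Nr1d2, in 1 of the 3 windows of Clock and in 1 of the 2 of Per1. No match was found for TTACGTAA (0.119% of windows), the cyclic AMP response element (1.79%) or the heat shock pair (7.86%). These matches describe letters in a window, and binding was not measured.

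Before stress, the 10 genes were expressed at low to moderate levels, given here in TPM, a unit scaled for transcript length and library size that lets genes be compared. Per2 was the lowest and Nr1d2 the highest in both controls: Per2 was at 2.73 ± 0.0354 TPM (SD, n = 2) in the heat control and 3.16 ± 0.113 in the H2O2 and KCl control, and Nr1d2 at 29.3 ± 1.87 and 36.02 ± 0.127. The starting points of the 2 experiments differed for some genes. Arntl was at 18.8 and 17.0 TPM in the heat control libraries and at 8.03 and 8.45 TPM in the other control, a ratio of 2.17. Cry1 went the opposite way, with 12.5 and 12.9 TPM in the heat control and 23.1 and 22.3 TPM in the other, 1.79 times as high. Per1 and Nr1d1 overlapped between the controls, while the libraries of the remaining 6 genes were separate by ratios of at most 1.36. The share of all genes with separate control libraries is not given here, so these differences are not shown to be particular to clock genes. The experiments were not tested against each other, and each stress is compared below with its own control.

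**Figure D1:**
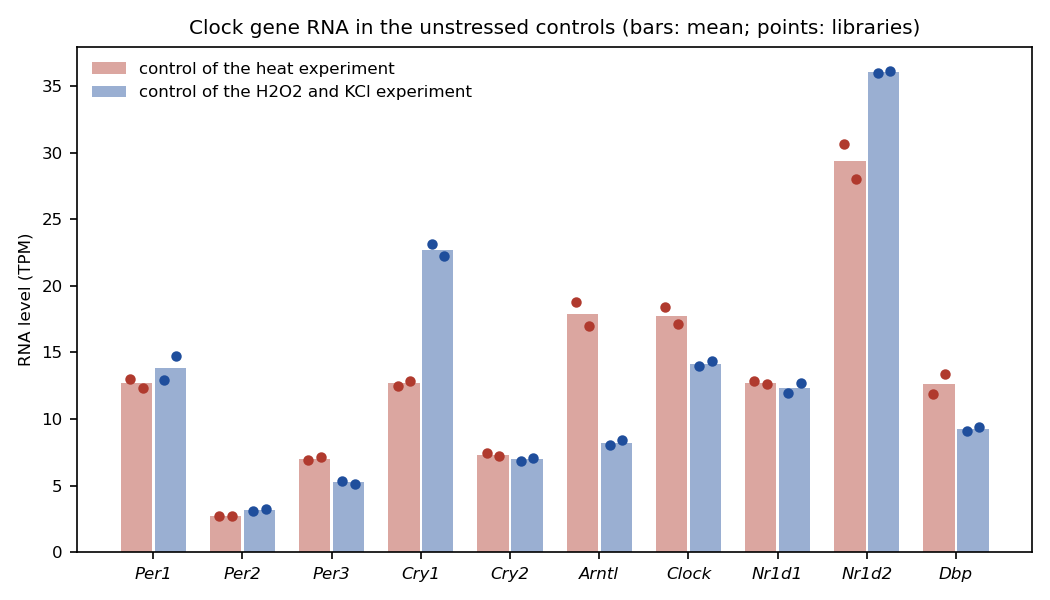
RNA level in TPM of the 10 clock genes in the 2 unstressed controls, with bars for the mean and points for the 2 libraries. Arntl is higher in the heat control (17.9 against 8.24 TPM) and Cry1 in the H2O2 and KCl control (22.7 against 12.7 TPM).

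All of these clock genes but Per2, which was called in 3, were called against their control in at least 4 of the 6 stress conditions. Most genes of the cell were called as well, 53.9% to 71.0% of those tested in each condition. The share of all genes called in as many conditions is not given here. The counts for single conditions below stand beside the share of all genes. A call means an adjusted p of at most 0.05 in edgeR's quasi-likelihood test. At 44 °C for 2 h, 8 of the 10 genes were called, 5 higher and 3 lower, where 71.0% of 12747 tested genes were called (35.4% higher, 35.7% lower). The TPM scale gave 6 higher and 3 lower at 44 °C, with 56.8% of all called genes higher in place of 49.8%. At 42 °C for 8 h, 9 were called, 5 higher and 4 lower, against 63.6% of all genes (31.7% higher, 31.9% lower). On the TPM scale, where the median of all genes at 42 °C moved by -0.15, the split was 3 higher and 5 lower, and 22.7% of all called genes were higher in place of 49.8%.

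H2O2 and KCl gave similar numbers at 2 h and different ones at 7 h. After 2 h of H2O2, 7 of the 10 were called, 5 higher and 2 lower, against 53.9% of 13256 genes (27.3% higher, 26.5% lower). All 10 were called after 7 h of H2O2, 2 higher and 8 lower, against 70.5% of genes (39.4% higher, 31.1% lower). On the TPM scale the members split in the same way there, and 49.9% of all called genes were higher in place of 55.9%. KCl for 2 h gave 8 calls, 5 higher and 3 lower, against 54.2% (27.2% higher, 27.0% lower). The TPM scale gave 5 higher and 4 lower there, with 36% of all called genes higher in place of 50.2%. KCl for 7 h gave 8 calls, 6 higher and 2 lower, against 68.8% (37.2% higher, 31.6% lower), and on the TPM scale 5 were higher and 3 lower, with 45.6% of all called genes higher in place of 54%.

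Few of the changes reached 2-fold. None of the 10 did at 44 °C (11.0% of all genes), 1 at 42 °C (7.92%), 1 after 2 h of H2O2 (13.3%), 4 after 7 h of H2O2 (23.3%), 1 after 2 h of KCl (12.7%) and 2 after 7 h of KCl (18.4%). The genes that reached it were Per2 at 42 °C, Dbp under H2O2 and KCl at both times, Per2 and Nr1d1 after 7 h of H2O2, and Arntl after 7 h of H2O2 and of KCl. The median of the absolute log2 fold change over the 10 genes was 0.31 at 44 °C, beside 0.33 over all tested genes. At 42 °C it was 0.50 beside 0.27. After 2 h and 7 h of H2O2 it was 0.49 and 0.66, beside 0.27 and 0.48. After 2 h and 7 h of KCl it was 0.72 and 0.76, beside 0.31 and 0.49.

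**Figure D2:**
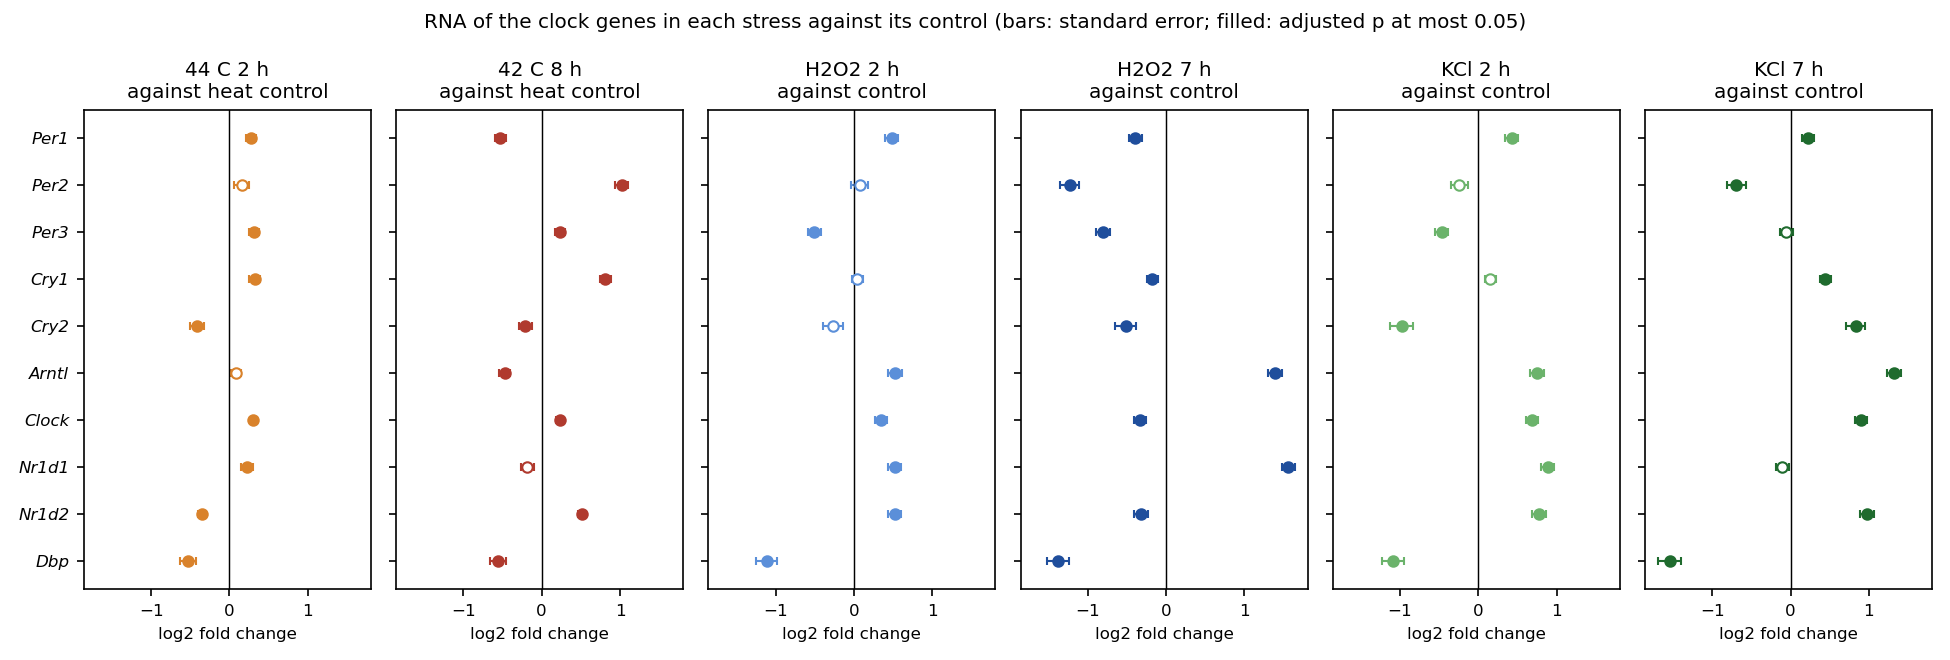
Log2 fold change of RNA for each clock gene in 6 comparisons of a stress with its control, with bars for the standard error and filled symbols for an adjusted p of at most 0.05. Dbp lies left of 0 in every panel, and Arntl and Nr1d1 lie farthest right after 7 h of H2O2 (1.39 and 1.56).

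Arntl, which encodes the activator without which the clock stops, rose under both chemical stresses and fell in long heat. Its RNA, in CPM (counts relative to library size, scaled by TMM), was at 10.49 and 10.95 in the control, 16.6 and 14.2 after 2 h of H2O2, rising to 26.9 and 29.5 at 7 h. Under KCl it was at 18.0 and 17.9 CPM at 2 h and 26.9 and 26.6 at 7 h. All stressed libraries lay above both controls, and at 7 h the lower H2O2 library and the higher KCl library met at 26.9 CPM. The log2 fold change at 7 h was 1.39 ± 0.09 (SE) for H2O2 (edgeR adjusted p = 3.63e-09) and 1.32 ± 0.09 for KCl (adjusted p = 1.41e-08). At 2 h it was 0.52 ± 0.09 and 0.74 ± 0.09. In heat it was not called higher: Arntl was at 24.3 and 22.0 CPM in the heat control, against 24.6 and 24.5 at 44 °C (log2 fold change 0.08 ± 0.07, adjusted p = 0.273) and 16.7 and 16.7 at 42 °C (-0.47 ± 0.07, adjusted p = 3.9e-05).

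Clock, which encodes the partner of ARNTL, followed Arntl under KCl and parted from it after 7 h of H2O2. Its RNA was at 63.9 and 64.7 CPM in the control, 94.4 and 112.3 after 2 h of KCl and 117.0 and 122.5 at 7 h, with log2 fold changes of 0.69 ± 0.08 and 0.90 ± 0.08. Under H2O2 it was at 77.9 and 85.2 CPM at 2 h (0.34 ± 0.08) and at 49.3 and 52.7 at 7 h (-0.33 ± 0.08, edgeR adjusted p = 0.00196). The control therefore lay between the 2 times of H2O2, with no overlap. In heat, Clock was higher by 0.31 ± 0.05 at 44 °C and by 0.23 ± 0.05 at 42 °C. On the TPM scale the difference at 42 °C was 0.04, with an adjusted p of 0.617 in limma.

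Nr1d1 (REV-ERB alpha), the receptor that represses Arntl in the second loop, gave the highest fold change of the 10 genes in the 6 comparisons with a control, after 7 h of H2O2. Its RNA was at 14.9 and 15.6 CPM in the control, 20.9 and 22.8 after 2 h of H2O2, then 42.5 and 47.3 at 7 h, a 2.95-fold difference from the control at 7 h (log2 fold change 1.56 ± 0.08, edgeR adjusted p = 3.62e-10). Arntl and Nr1d1 were the only 2 of the 10 genes called higher in that group. Under KCl, Nr1d1 was at 27.6 and 28.6 CPM at 2 h (0.88 ± 0.08) and back at 13.8 and 14.6 at 7 h, where it was not called (-0.10 ± 0.09, adjusted p = 0.307). In heat its differences were small: 0.22 ± 0.08 at 44 °C and -0.19 ± 0.08 at 42 °C (adjusted p = 0.0193 and 0.0604), and the value at 42 °C was called on the TPM scale (-0.34, limma adjusted p = 0.00468). The call at 44 °C was lost in DESeq2 (adjusted p = 0.0753) and without the second library at 44 °C (log2 fold change 0.12, adjusted p = 0.233), without the first control library (adjusted p = 0.052) or without the second (0.0702).

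Nr1d2 (REV-ERB beta), the related receptor, had its highest levels, like Clock, under KCl. Its RNA was at 76.1 and 75.7 CPM in the control, 118.2 and 141.2 after 2 h of KCl and 139.5 and 159.3 after 7 h of it. The 2 KCl groups overlapped. The log2 fold changes were 0.77 ± 0.09 and 0.98 ± 0.09. H2O2 gave 105.7 and 111.8 CPM at 2 h (0.52 ± 0.09) and 57.4 and 64.1 at 7 h (-0.32 ± 0.09, edgeR adjusted p = 0.00487). In heat, Nr1d2 fell at 44 °C, from 64.4 and 58.8 to 50.01 and 46.54 CPM (-0.35 ± 0.05), and rose at 42 °C, to 87.8 and 89.0 CPM (0.52 ± 0.05).

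**Figure D3:**
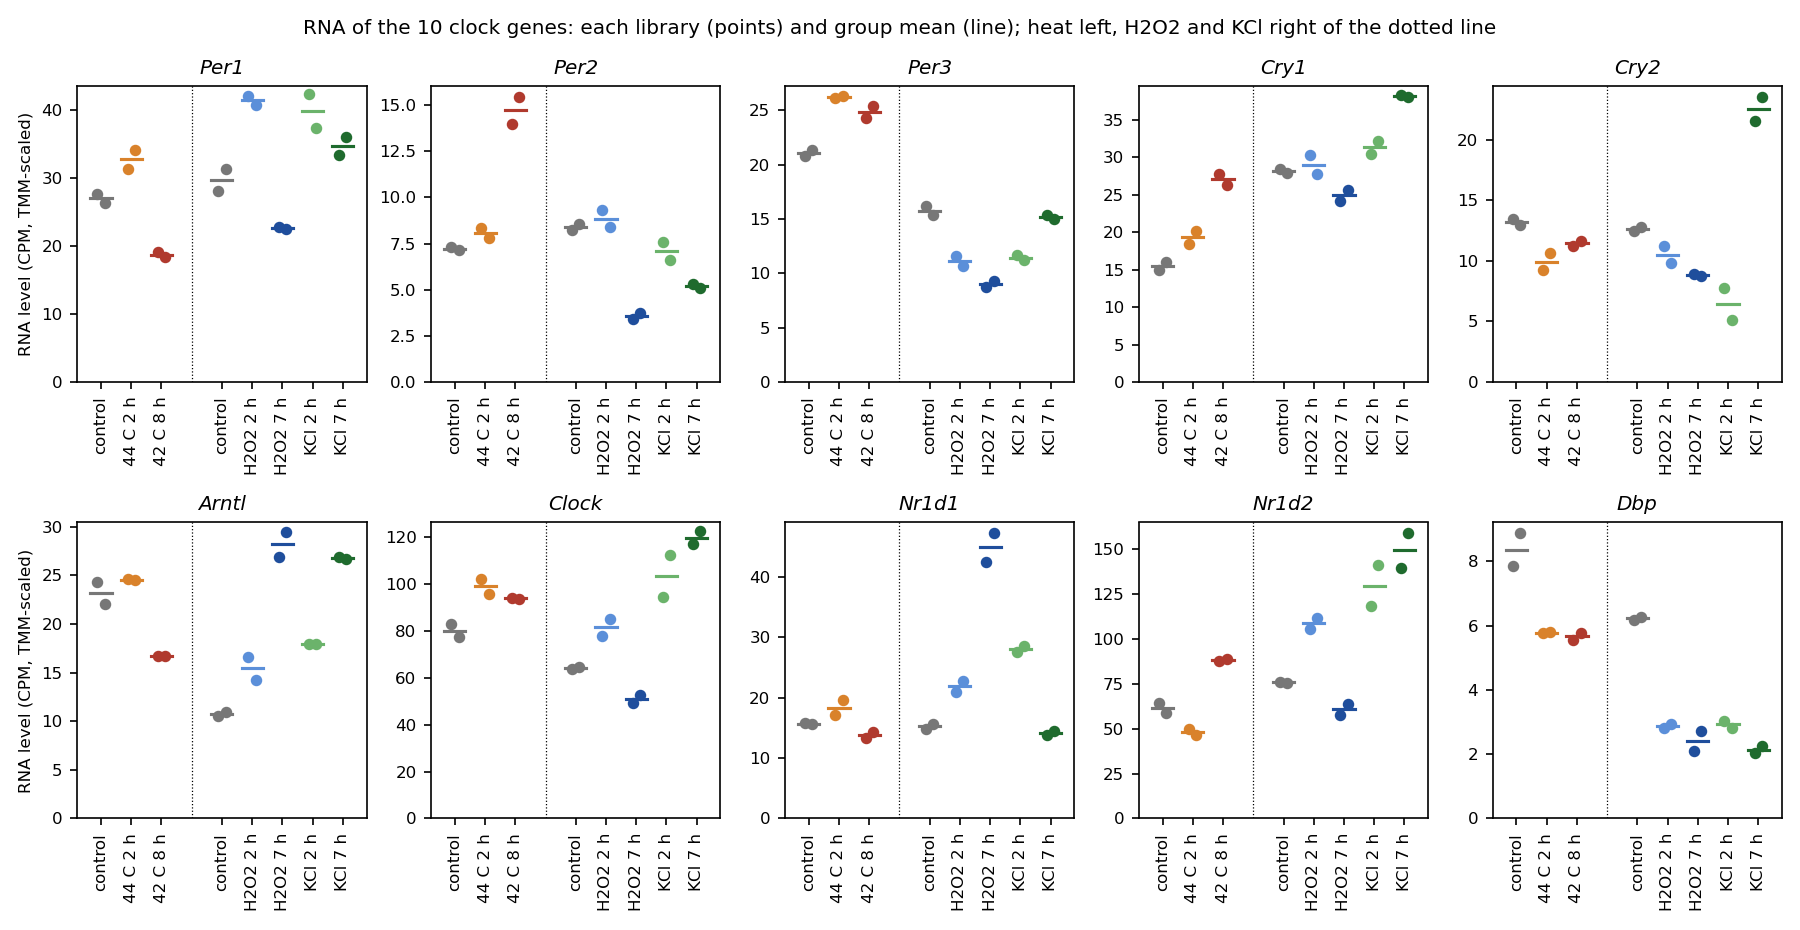
RNA level in CPM (TMM-scaled within each experiment) of each clock gene, with points for the 2 libraries of a group and a line for their mean, and a dotted line between the 2 experiments. Nr1d1 peaks after 7 h of H2O2 (42.5 and 47.3 CPM) and Cry2 after 7 h of KCl (21.5 and 23.5 CPM), while Dbp is below both controls in every stress group.

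Among the Period genes, which encode the PER inhibitors, each of the 3 had its own order of conditions. Per1, also known as a rapidly inducible gene, was higher after each short stress: 31.4 and 34.2 CPM at 44 °C against 27.8 and 26.3 in the control, 42.1 and 40.9 after 2 h of H2O2 and 42.4 and 37.5 after 2 h of KCl against 28.2 and 31.4. The log2 fold changes were 0.28 ± 0.06, 0.48 ± 0.08 and 0.42 ± 0.08. At the long times Per1 was lower at 42 °C (-0.53 ± 0.07) and after 7 h of H2O2 (-0.39 ± 0.08). With KCl for 7 h it was higher by 0.22 ± 0.08 (edgeR adjusted p = 0.0244), a call that was lost in DESeq2 (adjusted p = 0.0503), on the TPM scale (0.11, adjusted p = 0.271), without the first control library (0.14, adjusted p = 0.222) and without the second library after 7 h of KCl (0.17, adjusted p = 0.167).

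Per2 differed at the long times, upward in heat and downward under the chemical stresses. At 42 °C it was at 13.99 and 15.44 CPM against 7.30 and 7.16 in the control, a 2.03-fold difference (log2 fold change 1.02 ± 0.09, edgeR adjusted p = 1.82e-07). Long H2O2 gave 3.43 and 3.76 CPM against 8.25 and 8.57 (-1.23 ± 0.12), and KCl for 7 h gave 5.32 and 5.08 (-0.69 ± 0.12). None of the 3 short stresses gave a call for Per2, with log2 fold changes of 0.16 ± 0.09 at 44 °C, 0.07 ± 0.10 after 2 h of H2O2 and -0.24 ± 0.11 after 2 h of KCl. The last of these was called on the TPM scale in limma (adjusted p = 0.0161) and without the first library after 2 h of KCl (-0.35, adjusted p = 0.0424), and the first on the TPM scale (adjusted p = 0.0451).

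Per3, whose promoter window with its D-boxes is printed above, rose in heat and fell under H2O2. It was at 20.8 and 21.3 CPM in the heat control, rose to 26.1 and 26.4 at 44 °C and stood at 24.3 and 25.4 at 42 °C (log2 fold changes 0.32 ± 0.06 and 0.24 ± 0.06). On the TPM scale the difference at 42 °C was 0.05 and was not called (limma adjusted p = 0.44). In the other control it was at 16.2 and 15.4 CPM, against 11.6 and 10.6 after 2 h of H2O2, then 8.77 and 9.34 at 7 h (-0.51 ± 0.08 and -0.81 ± 0.09). With KCl it fell at 2 h, to 11.7 and 11.2 CPM (-0.47 ± 0.09), and at 7 h it was at 15.4 and 15.0 (-0.06 ± 0.08, edgeR adjusted p = 0.557), which on the TPM scale was -0.18 and called (limma adjusted p = 0.0222).

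The Cryptochrome genes encode the CRY inhibitors. Cry1 had its highest fold change in long heat and Cry2 its lowest and highest under KCl. Cry1 was at 14.93 and 15.97 CPM in the heat control, 18.5 and 20.1 at 44 °C (log2 fold change 0.32 ± 0.07) and 27.8 and 26.3 at 42 °C (0.81 ± 0.07, edgeR adjusted p = 2.41e-07). Under KCl it was at 30.4 and 32.2 CPM at 2 h (0.15 ± 0.07, adjusted p = 0.0849) and 38.3 and 38.1 at 7 h (0.44 ± 0.07), against 28.4 and 27.9 in the control. H2O2 gave 0.04 ± 0.07 at 2 h and -0.18 ± 0.07 at 7 h (adjusted p = 0.632 and 0.0416). The second of these was no longer called when any 1 of the 4 libraries compared was left out, at log2 fold changes from -0.22 to -0.17 (adjusted p from 0.0545 to 0.134).

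Cry2 moved in opposite directions at the 2 times of KCl. It was at 12.5 and 12.8 CPM in the control, 7.78 and 5.09 at 2 h and 21.5 and 23.5 at 7 h. The log2 fold changes were -0.98 ± 0.14 (edgeR adjusted p = 5.12e-05) and 0.83 ± 0.12 (adjusted p = 3.25e-05), and no library of one group overlapped with another. Under H2O2 it was at 11.2 and 9.81 CPM at 2 h (-0.27 ± 0.13, adjusted p = 0.0953) and 8.95 and 8.74 at 7 h (-0.51 ± 0.13, adjusted p = 0.00327). The value after 2 h of H2O2 was called without a filter on low counts (adjusted p = 0.0252), in a fit of the compared groups alone (0.0323) and without the first library at 2 h (log2 fold change -0.43, adjusted p = 0.0397). Heat gave -0.41 ± 0.08 at 44 °C and -0.21 ± 0.08 at 42 °C (adjusted p = 0.000525 and 0.0416), and the call at 42 °C was lost in DESeq2 (adjusted p = 0.206) and without any 1 of the 4 libraries compared (log2 fold changes from -0.23 to -0.18, adjusted p from 0.0659 to 0.179).

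Dbp, a transcription factor gene of the PAR bZIP family and a direct output of the CLOCK and ARNTL pair, fell in each of the 6 stress conditions. It was at 7.86 and 8.87 CPM in the heat control, against 5.78 and 5.79 at 44 °C, then 5.55 and 5.78 at 42 °C, with log2 fold changes of -0.53 ± 0.10 and -0.56 ± 0.10. In the other control it was at 6.18 and 6.26 CPM, against 2.82 and 2.93 after 2 h of H2O2, 2.09 and 2.73 after 7 h of H2O2, 3.05 and 2.82 after 2 h of KCl and 2.04 and 2.25 after 7 h of KCl. Every stressed library lay below both of its controls. The log2 fold changes in that order were -1.11 ± 0.13, -1.38 ± 0.14, -1.09 ± 0.14 and -1.54 ± 0.15, with edgeR adjusted p-values from 5.09e-07 to 1.74e-05. No other gene of the 10 was called in the same direction in all 6 conditions. The 4 comparisons with H2O2 and KCl share their control, as the 2 with heat do, so they are not independent of each other.

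Direct comparisons between times and agents show which of these orders exceed the spread between libraries. For 7 h against 2 h of H2O2, 8 of the 10 genes were called, 2 higher and 6 lower, against 73.4% of all genes, and 2 of them at 2-fold or more (26.5% of all genes). Nr1d1 (1.04 ± 0.08) and Arntl (0.87 ± 0.09) were higher at 7 h, while Per2 (-1.30 ± 0.12), Per1 (-0.87 ± 0.08), Nr1d2 (-0.84 ± 0.09) and Clock (-0.68 ± 0.08) were lower. Per3 (-0.30 ± 0.09) and Cry1 (-0.22 ± 0.07) were also lower, and both lost the call without the first library at 2 h (adjusted p = 0.0646 and 0.098) or the first at 7 h (0.0704 and 0.0891). Cry2 (-0.25 ± 0.14) and Dbp (-0.27 ± 0.16) were not called. Cry2 was called in a fit of the compared groups alone (adjusted p = 0.048), and Dbp on the TPM scale (limma adjusted p = 0.0163) and without the second library at 7 h (-0.45, adjusted p = 0.0474).

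For 7 h against 2 h of KCl, 9 of the 10 genes were called, 5 higher and 4 lower, against 68.8% of all genes, and 1 at 2-fold or more (21.8%). Of the 10, Cry2 gave the largest time difference, 1.81 ± 0.14 (edgeR adjusted p = 5.68e-08), and Nr1d1 the largest fall, -0.99 ± 0.09 (adjusted p = 1.86e-07). Arntl (0.58 ± 0.09), Per3 (0.41 ± 0.09) and Cry1 (0.29 ± 0.07) were higher at 7 h. Weaker calls were Per2 (-0.45 ± 0.12), Dbp (-0.46 ± 0.18), Clock (0.21 ± 0.08) and Per1 (-0.20 ± 0.08), and the count dropped to 5 without the first library after 2 h of KCl. In that fit Per2 was at -0.34, Clock at 0.09, Per1 at -0.11 and Dbp at -0.40. Per1 was also lost without the first library at 7 h (-0.15, adjusted p = 0.233), and Clock without the second at 7 h (0.18, adjusted p = 0.132). The Dbp call was lost without any 1 of the 4 libraries (adjusted p from 0.052 to 0.159) and in DESeq2 (0.109). Nr1d2 was just outside the threshold (0.20 ± 0.09, adjusted p = 0.051), and it was called without the second library at 2 h (0.34, adjusted p = 0.00303) or the first at 7 h (0.30, adjusted p = 0.0206).

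Between H2O2 and KCl, the share of clock genes called was near that of all genes at both times. The median of their absolute log2 fold change was 0.24 at 2 h and 0.68 at 7 h, beside 0.28 and 0.70 over all tested genes. At 2 h, 5 of the 10 were called, against 51.3% of all genes, and none at 2-fold or more (12.6%). Cry2 was higher in H2O2 (0.71 ± 0.15), and Nr1d1 (-0.36 ± 0.08) and Clock (-0.34 ± 0.08) were lower. Per2 (0.32 ± 0.11) and Nr1d2 (-0.25 ± 0.09) lost their calls without the first library after 2 h of H2O2 (0.23 and -0.22, adjusted p = 0.202 and 0.101) or the second after 2 h of KCl (0.21 and -0.12, adjusted p = 0.226 and 0.261). On the TPM scale 3 were called, Clock (limma adjusted p = 0.0607) and Nr1d2 (0.268) being lost, and 68.8% of all called genes were higher in H2O2 in place of 52.7%. The genes not called were Per1 (0.06 ± 0.08), Per3 (-0.04 ± 0.09), Cry1 (-0.11 ± 0.07), Arntl (-0.22 ± 0.09) and Dbp (-0.03 ± 0.16), and Arntl was called without the first library after 2 h of H2O2 (-0.34, adjusted p = 0.0157).

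At 7 h, 8 of the 10 differed between the agents, 1 higher and 7 lower in H2O2, against 78.4% of all genes, and 4 at 2-fold or more (33.9%). Nr1d1 was higher in H2O2 by 1.66 ± 0.08 (edgeR adjusted p = 2.18e-10). Cry2 (-1.35 ± 0.13), Nr1d2 (-1.30 ± 0.09) and Clock (-1.23 ± 0.08) were lower in H2O2 by more than 2-fold, and Per3 (-0.75 ± 0.09), Cry1 (-0.62 ± 0.07), Per1 (-0.61 ± 0.08) and Per2 (-0.54 ± 0.13) by less. Arntl (0.07 ± 0.08, adjusted p = 0.442) and Dbp (0.16 ± 0.18, adjusted p = 0.449) were not called. All 4 libraries of Arntl lay above, and all 4 of Dbp below, every other group of that experiment.

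In heat, the 2 regimes differed in temperature and in time together. Of the 10 genes 6 were called at 42 °C for 8 h against 44 °C for 2 h, 3 higher and 3 lower, against 75.1% of all genes, and none at 2-fold or more (15.0%). Nr1d2 (0.87 ± 0.05), Per2 (0.86 ± 0.09) and Cry1 (0.49 ± 0.07) were higher at 42 °C, and Per1 (-0.80 ± 0.07), Arntl (-0.55 ± 0.07) and Nr1d1 (-0.41 ± 0.08) were lower. Cry2 (0.20 ± 0.09, edgeR adjusted p = 0.0502), Per3 (-0.08 ± 0.06), Clock (-0.08 ± 0.05) and Dbp (-0.03 ± 0.11) were not called, and Cry2 was called without the second library at 44 °C (0.31, adjusted p = 0.0114). On the TPM scale, where the median of all genes moved by -0.20 and 28.6% of called genes were higher in place of 50.4%, 3 genes were higher and 6 lower: Per3, Clock and Dbp were called lower and Cry2 was at -0.04.

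Footprints of the clock genes were sparse, and 8 of the 10 genes passed the filter on low counts. Per3 had 0 to 9 footprints per library and Dbp 1 to 4, so neither was tested. The single library with none for Per3, the second after 2 h of KCl, allows up to 0.983 CPM. The footprints of the other genes ranged from 5 counts of Cry2 after 2 h of KCl to 345 of Nr1d1 after 7 h of H2O2.

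After 7 h of H2O2 the footprints of Arntl and Nr1d1 rose with their RNA. Nr1d1 was at 20.3 and 30.8 footprint CPM in the control and 79.7 and 99.4 after 7 h of H2O2 (log2 fold change 1.81 ± 0.31, edgeR adjusted p = 0.000841). Arntl was at 12.2 and 9.62 CPM in the control and 19.4 and 32.3 at 7 h (1.23 ± 0.34, adjusted p = 0.0157). These were the 2 calls among the 8 genes, where 27.7% of 10545 tested genes were called (61.9% of them higher, and 75.4% on the TPM scale). Without the second library after 7 h of H2O2 the Arntl value was 0.78 (adjusted p = 0.217), and without the second control library it was 1.07 (adjusted p = 0.101). The other 6 genes were not called: Per1 (-0.45 ± 0.27), Per2 (-1.06 ± 0.47), Cry1 (-0.41 ± 0.25), Cry2 (-0.23 ± 0.45), Clock (-0.60 ± 0.26) and Nr1d2 (-0.17 ± 0.30).

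No footprint change was called for the 8 genes after 2 h of H2O2 (1.91% of all genes, 59.7% of them higher and 75.0% on the TPM scale), after 2 h of KCl (6.86%) or after 7 h of KCl (20.4%), either by edgeR or by DESeq2. At an unadjusted p under 0.05 the numbers were 1, 3 and 1. The shares above are at the adjusted threshold, and the share of all genes at the unadjusted one is not given here. For H2O2 the log2 fold changes at 2 h were Per1 0.10 ± 0.27, Per2 -0.41 ± 0.46, Cry1 -0.11 ± 0.25, Cry2 -0.40 ± 0.47, Arntl -0.12 ± 0.37, Clock -0.85 ± 0.27, Nr1d1 0.42 ± 0.33 and Nr1d2 -0.16 ± 0.30. Those for KCl at 2 h were Per1 -0.01 ± 0.26, Per2 -1.10 ± 0.49, Cry1 -0.39 ± 0.26, Cry2 -1.43 ± 0.52, Arntl -0.17 ± 0.37, Clock -0.54 ± 0.27, Nr1d1 0.55 ± 0.32 and Nr1d2 -0.83 ± 0.31. Clock had the lowest unadjusted p among them under H2O2, and Cry2 under KCl. The 2 libraries after 2 h of H2O2 lay far apart for Nr1d1, at 48.0 and 24.3 CPM, and for Cry2, at 7.34 and 2.72 CPM, and they also had the lowest and the highest depth. Arntl had 18.8 and 21.0 footprint CPM after 7 h of KCl, above both controls, with a log2 fold change of 0.86 ± 0.35 (edgeR adjusted p = 0.0955). The other values in that group were Per1 -0.06 ± 0.26, Per2 -0.79 ± 0.47, Cry1 0.40 ± 0.24, Cry2 0.63 ± 0.42, Clock 0.26 ± 0.25, Nr1d1 0.13 ± 0.33 and Nr1d2 0.03 ± 0.30.

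Between the 2 times, footprints of Arntl and Nr1d1 were higher after 7 h of H2O2 than at 2 h, by 1.35 ± 0.36 and 1.39 ± 0.32 (edgeR adjusted p = 0.012 and 0.00526), where 29.8% of all genes were called (62.7% of them higher, and 79.1% on the TPM scale). Both calls were lost without the second library at 7 h (0.91 and 1.18, adjusted p = 0.155 and 0.0559). Arntl was lost without the first library at 2 h (1.19, adjusted p = 0.051) and Nr1d1 without the second (0.90, adjusted p = 0.0655). Not called were Per1 (-0.54 ± 0.27), Per2 (-0.65 ± 0.51), Cry1 (-0.30 ± 0.26), Cry2 (0.17 ± 0.49), Clock (0.25 ± 0.28) and Nr1d2 (-0.01 ± 0.30). Under KCl, Cry2 footprints were at 2.35 and 1.74 CPM at 2 h and at 9.02 and 8.23 at 7 h, a log2 fold change of 2.05 ± 0.51 (adjusted p = 0.0138), beside 1.81 ± 0.14 in RNA. Cry1 was also called (0.79 ± 0.26, adjusted p = 0.0449), where 20.6% of all genes were. Leaving out any 1 of the 4 libraries ended the Cry1 call (0.59 to 1.01), with adjusted p-values from 0.0782 to 0.234. Cry2 likewise lost its call, at 1.86 to 2.28 (adjusted p from 0.0539 to 0.102). Without the first library after 2 h of KCl, Arntl was called in its place (1.59, adjusted p = 0.0403). With all libraries, Arntl (1.04 ± 0.36), Clock (0.80 ± 0.27, adjusted p = 0.0508), Nr1d2 (0.86 ± 0.32), Nr1d1 (-0.42 ± 0.32), Per1 (-0.05 ± 0.27) and Per2 (0.31 ± 0.54) were not called, and Nr1d2 was called in a fit of the compared groups alone (adjusted p = 0.0462).

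**Figure D4:**
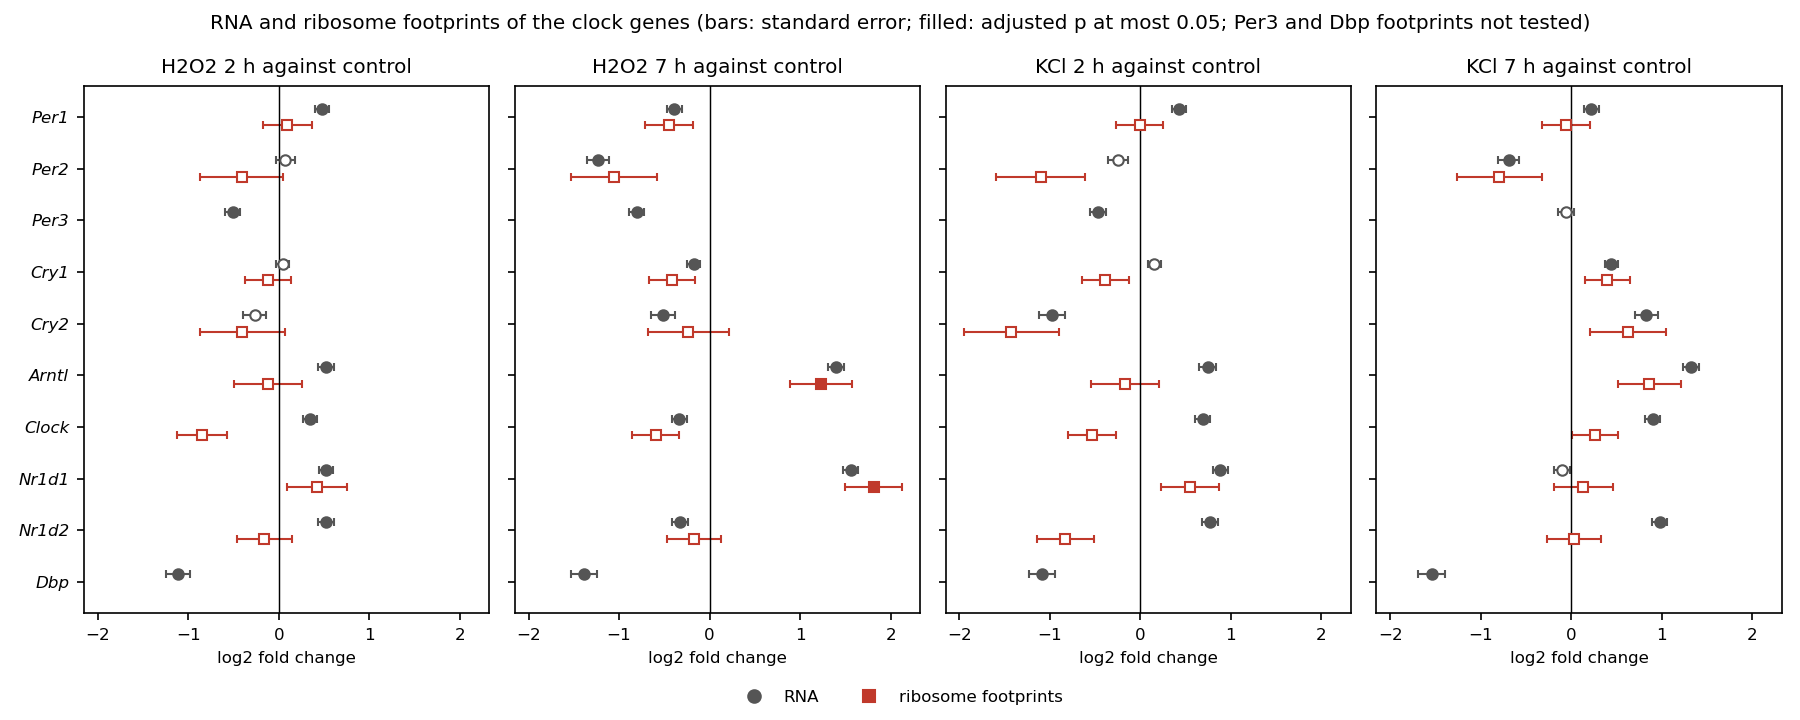
Log2 fold change against the control of RNA (grey circles) and of ribosome footprints (red squares) for each clock gene in 4 conditions, with bars for the standard error and filled symbols for an adjusted p of at most 0.05. After 7 h of H2O2 the RNA and footprint values of Arntl and Nr1d1 lie together, while after 2 h of KCl the footprints of Clock (-0.54) and Nr1d2 (-0.83) lie on the other side of 0 from their RNA (0.69 and 0.77).

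Translational efficiency, footprints relative to RNA for a given gene, was lower for Clock after short chemical stress. After 2 h of H2O2, Clock RNA was higher while its footprints were at 8.67 and 13.2 CPM against 21.5 and 20.1 in the control. The change in efficiency was -1.18 ± 0.23 on the log2 scale (edgeR interaction test, adjusted p = 0.00398). It was the 1 call among the 8 genes, where 11.4% of 10480 tested genes were called. Of those, 34.8% were higher, with 42% in DESeq2 and 26.7% in limma voom. In limma voom, with footprint and RNA libraries weighted apart, the change for Clock was -1.19 with an adjusted p of 0.0547. The other 7 values were Per1 -0.45 ± 0.24, Per2 -0.57 ± 0.36, Cry1 -0.17 ± 0.19, Cry2 -0.31 ± 0.46, Arntl -0.64 ± 0.35, Nr1d1 -0.24 ± 0.32 and Nr1d2 -0.65 ± 0.28. Other calls came in fits without 1 library: Nr1d2 without the second footprint library at 2 h (-1.36, adjusted p = 0.0156) or without the second footprint control (-0.91, 0.0476), and Per1 without the first footprint control (-0.75, 0.046).

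KCl at 2 h gave 2 calls, Clock and Nr1d2, where 12.8% of all genes were called (28% of them higher, and 40.7% in DESeq2). Clock footprints were at 14.8 and 13.9 CPM, below both controls, with a change in efficiency of -1.23 ± 0.23 (edgeR adjusted p = 0.0018). Nr1d2 footprints were at 15.8 and 13.9 CPM against 31.8 and 20.9 in the control, and the change in efficiency was -1.62 ± 0.30 (adjusted p = 0.00179). Arntl was at -0.93 ± 0.36 (adjusted p = 0.0991), was called in DESeq2 (0.0436) and was called without the first footprint library after 2 h of KCl (-1.48, adjusted p = 0.0331). Per1 (-0.44 ± 0.24) was called without the first footprint control (-0.74, adjusted p = 0.0446). The remaining values were Per2 -0.87 ± 0.41, Cry1 -0.55 ± 0.20, Cry2 -0.47 ± 0.57 and Nr1d1 -0.33 ± 0.31. All 8 genes had a value below 0 after 2 h of either agent, with medians of -0.51 for H2O2 and -0.71 for KCl beside -0.01 and -0.02 over all tested genes. Both agents share 1 control, so their values are not independent of each other. For Cry2 and Nr1d1 under H2O2 the value crossed 0 when single libraries were left out.

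At 7 h no change in efficiency was called by edgeR for the 8 genes, under H2O2 (9.27% of all genes) or under KCl (5.57%). At an unadjusted p under 0.05 there were 0 under H2O2 and 2 under KCl, without a share of all genes at that threshold here. DESeq2 called 0 and 1 of the 8, beside 1651 and 1287 of all genes. The call in DESeq2 was Nr1d2 under KCl (-0.93, adjusted p = 0.0181), which edgeR placed at -0.93 ± 0.28 (adjusted p = 0.0599) and called without the second footprint control (-1.19, adjusted p = 0.0232). The other values under KCl were Per1 -0.25 ± 0.24, Per2 -0.08 ± 0.39, Cry1 -0.00442 ± 0.19, Cry2 -0.18 ± 0.39, Arntl -0.43 ± 0.32, Clock -0.60 ± 0.21 and Nr1d1 0.26 ± 0.33. Those under H2O2 were Per1 -0.05 ± 0.24, Per2 0.17 ± 0.40, Cry1 -0.23 ± 0.20, Cry2 0.28 ± 0.44, Arntl -0.16 ± 0.30, Clock -0.26 ± 0.23, Nr1d1 0.26 ± 0.29 and Nr1d2 0.15 ± 0.28.

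The other genes of the clock were read from 4 lists with 28 genes, as counts of calls. Of 27 tested in heat, 15 were higher and 7 lower at 44 °C, and 17 were higher and 6 lower at 42 °C. Over all genes the shares called were 35.4% higher and 35.7% lower in the 44 °C comparison, and 31.7% and 31.9% in long heat. On the TPM scale 22.7% of all called genes were higher at 42 °C in place of 49.8%. How these lists split on that scale is not given here. Of 28 tested in the other experiment, 8 were higher and 6 lower after 2 h of H2O2, 9 and 8 after 7 h of H2O2, 9 and 7 after 2 h of KCl, and 15 and 6 after 7 h of KCl. The shares of all genes in that order were 27.3% higher and 26.5% lower, 39.4% and 31.1%, 27.2% and 27.0%, and 37.2% and 31.6%. These shares and those in heat also stand beside the counts of the separate lists below. Rora, which encodes a receptor that competes with the REV-ERBs at ROR elements, rose under KCl, by 2.52 ± 0.15 at 2 h and 2.86 ± 0.15 at 7 h on the log2 scale, from a mean of 2.31 to 13.1 and 16.7 CPM. Rora also lay above both controls (2.03 and 2.59 CPM) under H2O2. It was at 5.42 and 5.20 CPM at 2 h and 3.58 and 4.15 at 7 h. In heat it was at 10.7 and 9.6 CPM at 44 °C and 5.06 and 4.94 at 42 °C, against 6.06 and 6.02. Npas2, a relative of Clock, rose by 2.30 ± 0.42 on the log2 scale after 7 h of H2O2, at a mean of 1.21 CPM.

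The 6 other PAR bZIP and repressor genes had 3 higher and 2 lower calls in short heat, 5 and 1 in long heat, 3 and 2 at each time of H2O2, 1 and 3 after 2 h of KCl and 2 and 1 after 7 h. Among them, Bhlhe40 (DEC1) and Ciart (CHRONO), both repressors of CLOCK and ARNTL, rose after 2 h of H2O2. Bhlhe40 went from a mean of 108.1 to 467 CPM (log2 fold change 2.11 ± 0.09) and Ciart from 3.58 to 15.8 CPM (2.14 ± 0.12), and their footprints rose by 1.53 ± 0.29 and 1.93 ± 0.30 (edgeR adjusted p = 0.0188 and 0.00773). The footprint call of Bhlhe40 was lost when either library at 2 h (1.54 and 1.52) or the second control (1.29) was left out and on the TPM scale (limma adjusted p = 0.104), and that of Ciart without the second library at 2 h (1.48, adjusted p = 0.0696) or either control (1.92 and 1.93). Bhlhe40 RNA was below the control after 7 h of H2O2 (-0.73 ± 0.09). Hlf, which like Dbp belongs to the PAR bZIP family, was at 3.001 CPM after 7 h of H2O2 against 29.3 in the control (-3.30 ± 0.14, adjusted p = 3.49e-11). In heat Hlf went the other way from Dbp, with 1.08 ± 0.10 at 44 °C and 1.23 ± 0.10 at 42 °C. Nfil3, a repressor that binds D-boxes, rose after 2 h of KCl from a mean of 44.0 to 100 CPM (1.18 ± 0.07).

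Of the 10 genes for kinases and turnover of clock proteins, 6 were higher and 3 lower in short heat, 5 and 2 in long heat, 2 and 1 after 2 h of H2O2, 3 and 1 after 7 h of H2O2, 3 and 2 after 2 h of KCl, and 7 and 2 after 7 h of KCl. Fbxw7, an F-box protein that marks proteins for degradation, gave the highest footprint change of the 21 genes of these lists tested in footprints after 7 h of H2O2. It had 10 and 18 footprints in the control libraries and 256 and 275 at 7 h, or 2.45 and 4.95 CPM against 72.9 and 79.2. The log2 fold change was 4.37 ± 0.42 (edgeR adjusted p = 8.16e-06) in footprints and 3.22 ± 0.31 (adjusted p = 3.96e-05) in translational efficiency. Its RNA was at 20.7 and 22.1 CPM in the control and 45.1 and 51.1 at 7 h. The 7 co-regulators had 4 higher and 2 lower calls in short heat, 5 and 1 in long heat, 1 and 2 after 2 h of H2O2, 0 and 5 after 7 h of H2O2, 3 and 2 after 2 h of KCl and 3 and 3 after 7 h. Among them Hdac3, which acts with the REV-ERBs and NCOR1, fell at 44 °C from a mean of 100.1 to 54.4 CPM (-0.88 ± 0.05).

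The genes whose RNA pattern was most like that of each clock gene were found among 9240 genes whose average log2 CPM reached 3, by Pearson's correlation over the 16 libraries of log2 CPM centred on the control mean of each experiment. The nearest were Rab43 for Per1 (0.91), Wnt10b for Per2 (0.96), Mtmr4 for Per3 (0.96), Bag3 for Cry1 (0.95), Atxn7l2 for Cry2 (0.98), Bsg for Arntl (0.98), Matr3 for Clock (0.98), Fbxw9 for Nr1d1 (0.96), Ptprk for Nr1d2 (0.97) and Agpat3 for Dbp (0.97). For Cry1 the second was Hspa1b (0.95), which like Bag3 is a heat shock gene. Among the clock genes themselves, Clock and Nr1d2 were the most alike (0.83), Arntl ran opposite to Per2 (-0.91) and to Dbp (-0.83), and Nr1d1 ran opposite to Per3 (-0.86). These points share libraries and controls and are given as a description.

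The authors' deposited calls of transcription past gene ends (DoGs, downstream-of-gene transcripts) listed 9 pairs of neighbours with a clock gene in them. None of the 9 was called as read-in, transcription that reaches into the downstream gene, in any of the 16 RNA libraries, where 1.38% of all 102384 calls were true. A DoG from Nr1d2 toward Rarb was called in 5 of 16 libraries, both of those at 44 °C among them and no control. A DoG from Rpl15 toward Nr1d2 was called in 9 of 16, both libraries of H2O2 at 2 h and of KCl at 2 h and 7 h, and 1 control library among them. The other 7 pairs were called in 1 or 2 libraries each, and the 9 pairs together in 23 of 144 values (16%), where 28.5% were true over all pairs and libraries.

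Some clock genes share bases with a neighbour, and the labels do not say whether the counting used the strand. In RefSeq (GRCm38.p6), Nr1d1 overlaps Thra, the thyroid hormone receptor alpha gene, by 1075 bases, and Dbp overlaps Sphk2, a sphingosine kinase gene, by 741 bases on the other strand. Thra was called higher with Nr1d1 at 44 °C (0.24 ± 0.05 on the log2 scale), lower at 42 °C (-0.56 ± 0.05), where Nr1d1 was not called, and lower where Nr1d1 was higher after 2 h and 7 h of H2O2 (-0.68 ± 0.08 and -0.70 ± 0.08). It was not called under KCl (-0.15 ± 0.08 at 2 h and -0.000617 ± 0.08 at 7 h). Sphk2 was called lower with Dbp after 2 h of H2O2 (-0.68 ± 0.10) and after 2 h of KCl (-1.37 ± 0.11), and higher at 44 °C (0.33 ± 0.07), where Dbp was lower. It was not called at 42 °C (-0.01 ± 0.07) or after 7 h of H2O2 (0.20 ± 0.10) or of KCl (0.19 ± 0.10), and the value after 7 h of H2O2 was called without the second library of that group (0.28, edgeR adjusted p = 0.0489). Per3 overlaps Uts2 by 4714 bases, and Uts2 was at 0 CPM in all 16 RNA libraries. Other overlaps were with neighbours that have no RNA values here. Cry2 overlaps D930015M05Rik by 23417 bases and Arntl overlaps Gm33721 by 18143, both on the other strand. Per2 overlaps Gm35591 by 14768 bases, and Clock overlaps Ube2n-ps1 by 1213 and Gm7467 by 652. How reads in the shared bases were divided was not tested.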

How the data were processed

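RNA of 16 libraries and ribosome footprints of 10 libraries were analysed, 2 in each of 13 groups. The authors deposited expected counts per gene, whole numbers here, and TPM for the same libraries, and true or false calls of DoGs and read-in for pairs of neighbouring genes. The submitters' processing notes name STAR, RSEM and Bowtie and the build mm10, without saying which tool made which file. Versions, annotation and footprint length filters are not stated there. A further 12 columns that match no labelled sample were not used. Values of overlapping genes depend on how their shared reads were divided.

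All genes were tested with edgeR 4.0.16 in R 4.3.3 (quasi-likelihood fit, TMM, filterByExpr), with 1 fit for each experiment and kind of library. Adjusted p-values are Benjamini-Hochberg values over the whole table, and 0.05 was the threshold. Translational efficiency was an interaction term over both kinds. Alternatives were DESeq2 1.42.0, RLE size factors, no filter, limma 3.58.1 on log2(TPM + 1) and log2(TPM + 0.1), limma voom for efficiency, the compared groups alone, a replicate block, a fold of at least 2, and each library left out in turn. An arm with 1 library left is assumed to vary like the other groups. The fits were tested on simulated data.

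All 10 clock genes were named in every comparison in which they were tested. Of the 28 other clock genes, at most the 2 highest and 2 lowest called values of a comparison were named. Thra, Sphk2, Uts2 and neighbours without RNA values were named for their overlap. Bhlhe40 and Fbxw7 have synonyms (Stra13, Fbxo30) that are rows of other genes. The separate counts of 1 of the 4 lists of other clock genes are not reported here. The members and lists were chosen with earlier results of these data known.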

Additional observations from a re-analysis of the deposited data

Results flagged for a closer look

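Several clock genes were called in opposite directions under 2 conditions that share a control, and the direct comparison of those conditions, in the edgeR fit, was called as well. The share of all genes that meet the same rule is not given here, so the flags are not shown to be particular to clock genes. For H2O2 and KCl at 7 h, 70.5% and 68.8% of all genes were called against the control. Between the agents at 7 h, 78.4% were called. Values are log2 fold changes of RNA.

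Between the heat regimes, Per1 was higher at 44 °C and lower at 42 °C (difference -0.80, adjusted p = 7.18e-08), and Nr1d2 was lower at 44 °C and higher at 42 °C (0.87, adjusted p = 3.06e-09). Per1, Clock and Nr1d2 were higher than the control at 2 h of H2O2 and lower at 7 h, with differences of -0.87, -0.68 and -0.84 (adjusted p = 3.04e-07, 3.32e-06 and 1.01e-06). Cry2 was lower at 2 h of KCl and higher at 7 h (1.81, adjusted p = 5.68e-08).

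Between the agents at 7 h, Per1, Cry1, Cry2, Clock and Nr1d2 were lower than the control under H2O2 and higher under KCl. The differences were -0.61, -0.62, -1.35, -1.23 and -1.30, with adjusted p-values from 3.71e-09 to 1.06e-05. For Per1 under KCl (0.22) and Cry1 under H2O2 (-0.18), the call against the control was lost when single libraries were left out.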

How the results depend on the processing

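Directions in the edgeR fits mostly held, as did the calls in RNA and in efficiency. The footprint calls mostly did not hold when libraries were left out. Only the call of Nr1d1 after 7 h of H2O2 held whichever library was left out. Most footprint values counted below as unchanged had not been called. RLE size factors left 110 of 110 RNA values on their side of the threshold, DESeq2 105, and log2(TPM + 1) 94. Leaving out 1 library left 396 RNA, 154 footprint and 230 efficiency values as they were, and ended the call of 30, 14 and 0. Footprint depth, as low as 5 counts for Cry2, limits what could be called there.

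Counts of members moved as follows. With a fold of at least 2 required, the RNA counts were 0 (44 °C), 1 (42 °C), 0 (42 °C against 44 °C), 1 and 4 (H2O2 at 2 h and 7 h), 1 and 2 (KCl at 2 h and 7 h), 2 and 1 (7 h against 2 h of H2O2 and of KCl), and 0 and 4 (H2O2 against KCl at 2 h and 7 h). H2O2 against KCl at 2 h gave 3 on both TPM scales and 3 to 5 without 1 library. KCl at 7 h against 2 h gave 5 to 9. In footprints, leaving out 1 library gave 1 to 2 for 7 h of H2O2, 0 to 2 for 7 h against 2 h of H2O2 and 0 to 1 for KCl, where DESeq2 gave 1. In efficiency, H2O2 at 2 h gave 0 in limma voom and 1 to 2 without 1 library, and KCl at 7 h gave 1 in DESeq2 and 0 to 1 without 1 library.

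Values that changed sign had not been called. On the TPM scales, Cry2 RNA at 42 °C against 44 °C was -0.0386 and -0.0443, and Dbp RNA in H2O2 against KCl at 2 h was 0.0669 and 0.0806. Without 1 library, RNA ranged as follows: Dbp at 42 °C against 44 °C from -0.0572 to 0.00136, Per2 and Cry1 at 2 h of H2O2 from -0.0612 to 0.143 and from -0.0817 to 0.105, Per1, Per3 and Dbp in H2O2 against KCl at 2 h from -0.035 to 0.144, from -0.109 to 0.0189 and from -0.0858 to 0.0255, and Dbp at 7 h from -0.0288 to 0.34. Among the overlapping genes, Sphk2 at 42 °C ranged from -0.0716 to 0.0542 and Thra after 7 h of KCl from -0.113 to 0.107, and Sphk2 after 7 h of KCl was -0.018 and -0.0188 on the TPM scales.

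Footprint values at 2 h of H2O2 ranged from -0.204 to 0.453 (Per1), -1.03 to 0.389 (Cry2), -0.459 to 0.0659 (Arntl), -0.0717 to 0.907 (Nr1d1) and -0.79 to 0.175 (Nr1d2), and at 7 h from -0.442 to 0.124 (Nr1d2). At 2 h of KCl, Per1 ranged from -0.258 to 0.353, with 0.0253 in DESeq2 and 0.026 with RLE, and Arntl from -0.724 to 0.219. At 7 h of KCl they ranged from -0.351 to 0.302 (Per1), -0.14 to 0.458 (Nr1d1) and -0.238 to 0.369 (Nr1d2). For 7 h against 2 h of H2O2, Cry2 ranged from -0.628 to 0.787 and Nr1d2 from -0.322 to 0.615, with 0.0032 in DESeq2 and 0.2999 and 0.3259 on the TPM scales, and for KCl Per1 ranged from -0.263 to 0.196.

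Efficiency at 2 h of H2O2 ranged from -0.808 to 0.615 (Cry2) and -0.628 to 0.349 (Nr1d1), and at 7 h from -0.351 to 0.328 (Per1), -0.0326 to 0.395 (Per2), -0.576 to 0.143 (Arntl), -0.0197 to 0.605 (Nr1d1) and -0.0911 to 0.491 (Nr1d2). At 7 h of KCl it ranged from -0.554 to 0.11 (Per1), -0.279 to 0.131 (Per2), -0.109 to 0.105 (Cry1, with 0.00722 for the compared groups alone) and -0.0182 to 0.59 (Nr1d1). The cause was not tested.

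Over all genes, the number called moved by over 1.5 times in footprints, from 201 to between 27 and 315 (2 h of H2O2), 2925 to between 1681 and 3339 (7 h), 723 to between 211 and 849 (2 h of KCl), 2148 to between 996 and 2253 (7 h), 3139 to between 1828 and 3217 and 2170 to between 802 and 2242 (7 h against 2 h of H2O2 and of KCl). In efficiency it moved from 1199 to between 586 and 2029, 971 to between 453 and 1651, 1337 to between 732 and 2074, and 584 to between 221 and 1287 (H2O2 at 2 h and 7 h, KCl at 2 h and 7 h).

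Replicate numbers were not taken as pairs, because same-numbered deviations correlated from -0.0531 to 0.117 in RNA and not in the same direction over all footprint groups. Among the footprint control, H2O2 at 7 h and KCl at both times they correlated from 0.198 to 0.417, while pairs with H2O2 at 2 h gave -0.384 to -0.0459. With the replicate number as a block, 3 RNA calls were gained: Nr1d1 at 42 °C (-0.19, adjusted p = 0.0455), Cry2 at 42 °C against 44 °C (0.21, adjusted p = 0.0483) and Nr1d2 at 7 h against 2 h of KCl (0.20, adjusted p = 0.0113). The block changed no other call.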
